A study of Homo sapiens with 6 samples.

Results

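The SOX factors are transcription factors that bind DNA through a domain of the high-mobility-group type, and they are sorted into groups by the likeness of that domain. Those of group B1, such as SOX2, are known to keep neural stem cells undifferentiated, and glioma cells with stem-like behaviour depend on SOX2. Groups C (SOX4, SOX11), D (SOX5, SOX6, SOX13) and E (SOX8, SOX9) act in the nervous system and in cartilage, and group D proteins lack an activation domain of their own. SOX2-OT is a long noncoding transcript whose gene spans that of SOX2 on the same strand, and SALL2 is a zinc finger factor that, together with SOX2, POU3F2 and OLIG2, has been used to return differentiated glioblastoma cells to a stem-like state. These 10 genes were followed in U251 cells grown on aligned or random nanofibers. Members were the probe sets that the platform annotation assigns to exactly 1 of these symbols, which gave 33 of 54675 probe sets and 10 of 19775 genes.

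U251 is an established human glioma line. The cultures are described as independent. The cells were plated on electrospun poly-caprolactone nanofibers that were highly aligned (3 cultures) or randomly oriented (3 cultures), in medium with serum and with no further treatment. RNA was taken after 24 h and read on 1 Affymetrix array per culture. Cell line, polymer and medium were shared by both groups, so only the orientation of the fibers differed by label. SOX4, SOX9, SALL2 and SOX2-OT had been noted as lower on aligned fibers in these same arrays, so the members were chosen by their log2 values in this same contrast, and the others were named with those results known. The members' differences between the substrates are therefore descriptions, with no test.

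Values are log2 RMA values, in which a difference of 1 is a doubling. Dim probe sets were set aside: to be kept, a probe set had to exceed the array median on 3 or more arrays, which 27621 probe sets of 12381 genes did. Aligned replicate 3 stood apart from the other arrays. It lay at 46.1 on the first principal component of the kept probe sets, with the other 5 arrays between -17.1 and 8.52, and its values differed from the random mean by a root mean square of 0.37, against 0.19 for both other aligned arrays. The 3' minus 5' signal of GAPDH, a sign of RNA quality, was 0.14 ± 0.04 in the aligned cultures and 0.10 ± 0.02 in the random ones (SD, n = 3 each, exact two-sided permutation p = 0.3, with 0.1 the smallest possible). That of beta-actin ran the other way, at 0.15 ± 0.06 in the aligned cultures and 0.20 ± 0.03 in the random ones, with the same exact p of 0.3. In limma with Benjamini-Hochberg adjustment, 0% of kept probe sets passed an adjusted p under 0.05 (0 of 27621, lowest adjusted p = 0.506), and 2676 had an unadjusted p under 0.05 (5.83% lower and 3.86% higher on aligned fibers). Without aligned 1 that count was 4812, without aligned 3 it was 1494, without random 2 it was 1558 and without random 3 it was 1262.

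The glioma identity was checked on markers. Vimentin (VIM) read 14.21, 14.15 and 14.06 in the aligned cultures, against 14.26, 14.22 and 14.20 in the random ones. NES, the neural progenitor filament nestin, and CD44, a hyaluronan receptor, were kept as well. GFAP, the astrocyte filament, was kept but read low, at 5.80, 4.87 and 5.00 on aligned and 6.65, 6.20 and 5.24 on random fibers, around the array medians of 5.63 to 5.66. The astrocyte markers S100B, AQP4 and ALDH1L1 had no kept probe set, so these defining astrocyte markers were dim in the cultures. Of this list of 7 genes 4 were measured, and 0 passed an unadjusted p under 0.05 in limma or the adjusted threshold.

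The promoter windows shown here belong to the members whose most brightly read probe set had all aligned arrays below all random arrays and for which the RefSeq table holds a window. Each covers 250 bases before to 50 after an annotated start in GRCh38.p14 and is written 5′ to 3′ on the gene's strand. Capitals mark the SOX core motifs ACAAAG and ACAATG, searched on both strands (CTTTGT and CATTGT on the opposite one), which do not overlap with each other here.
SOX2 (chr3:181711675-181711974, plus strand): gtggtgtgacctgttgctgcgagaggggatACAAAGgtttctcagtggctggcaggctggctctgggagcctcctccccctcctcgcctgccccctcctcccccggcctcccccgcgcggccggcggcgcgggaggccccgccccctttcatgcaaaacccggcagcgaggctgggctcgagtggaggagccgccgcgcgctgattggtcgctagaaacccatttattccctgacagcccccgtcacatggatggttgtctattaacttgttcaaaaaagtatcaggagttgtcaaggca
SOX2-OT (chr3:181610084-181610383, plus strand): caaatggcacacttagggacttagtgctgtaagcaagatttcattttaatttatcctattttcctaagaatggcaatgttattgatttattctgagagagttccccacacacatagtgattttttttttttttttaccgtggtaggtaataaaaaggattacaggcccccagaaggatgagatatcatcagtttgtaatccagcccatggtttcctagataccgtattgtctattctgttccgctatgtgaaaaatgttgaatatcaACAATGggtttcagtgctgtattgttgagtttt
SOX4 (chr6:21593501-21593800, plus strand): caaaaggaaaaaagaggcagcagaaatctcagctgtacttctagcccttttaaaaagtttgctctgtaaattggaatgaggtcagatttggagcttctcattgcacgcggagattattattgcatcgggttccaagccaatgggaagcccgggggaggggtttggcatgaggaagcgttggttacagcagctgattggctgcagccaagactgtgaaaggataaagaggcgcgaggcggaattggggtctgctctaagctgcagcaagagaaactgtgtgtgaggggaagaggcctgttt
SOX5 (chr12:24562442-24562741, minus strand): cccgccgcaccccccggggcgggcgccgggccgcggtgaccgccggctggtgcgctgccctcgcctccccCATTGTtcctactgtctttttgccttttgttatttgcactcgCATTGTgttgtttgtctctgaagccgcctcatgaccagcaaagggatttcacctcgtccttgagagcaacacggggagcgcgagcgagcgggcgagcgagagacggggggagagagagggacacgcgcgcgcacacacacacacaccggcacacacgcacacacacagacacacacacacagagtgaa
SALL2 (chr14:21537072-21537371, minus strand): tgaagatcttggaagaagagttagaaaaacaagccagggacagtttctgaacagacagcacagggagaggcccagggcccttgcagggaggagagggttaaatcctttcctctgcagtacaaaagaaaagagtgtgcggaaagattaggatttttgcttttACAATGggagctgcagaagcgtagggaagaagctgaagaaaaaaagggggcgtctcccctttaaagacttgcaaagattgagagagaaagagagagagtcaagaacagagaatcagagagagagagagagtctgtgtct
The SOX2-OT window is the nearest to SOX2 of 3 in the table and starts 101591 bases before the window of SOX2. No window was used for SOX8, SOX9 and SOX11. Of all 35116 windows of this length, 16.1% hold ACAAAG, 10.8% hold ACAATG and 24.5% hold either. Positions give the first base of a match in the window, counted from 1 at the start site and from -1 before it. SOX2 holds ACAAAG at -220, SALL2 holds ACAATG at -89, this SOX2-OT window holds ACAATG at 18, and SOX5 holds ACAATG on the opposite strand at -180 and -138. The SOX4 window, like that of SOX13, holds neither string. A match describes the letters of a window and is no evidence of binding.

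Of the 33 probe sets, 17 passed the filter on dim values and 16 did not. The 17 covered 8 of the 10 genes, and SOX8 and SOX11 had no kept probe set. All aligned arrays lay below all random arrays in 12 of the 17, the groups overlapped in 5, and in 0 did the aligned arrays lie above. Over all kept probe sets the aligned arrays lay below in 8.86% and above in 7.61%. The members had been named with this contrast in view, so nothing is read from the distance between these shares. A pair of the 12, SOX4 213665_at and SOX13 1569111_at, passed the filter through the random arrays alone and so had to read lower on aligned fibers. Of the other 15, 10 did not overlap.

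**Figure D1:**
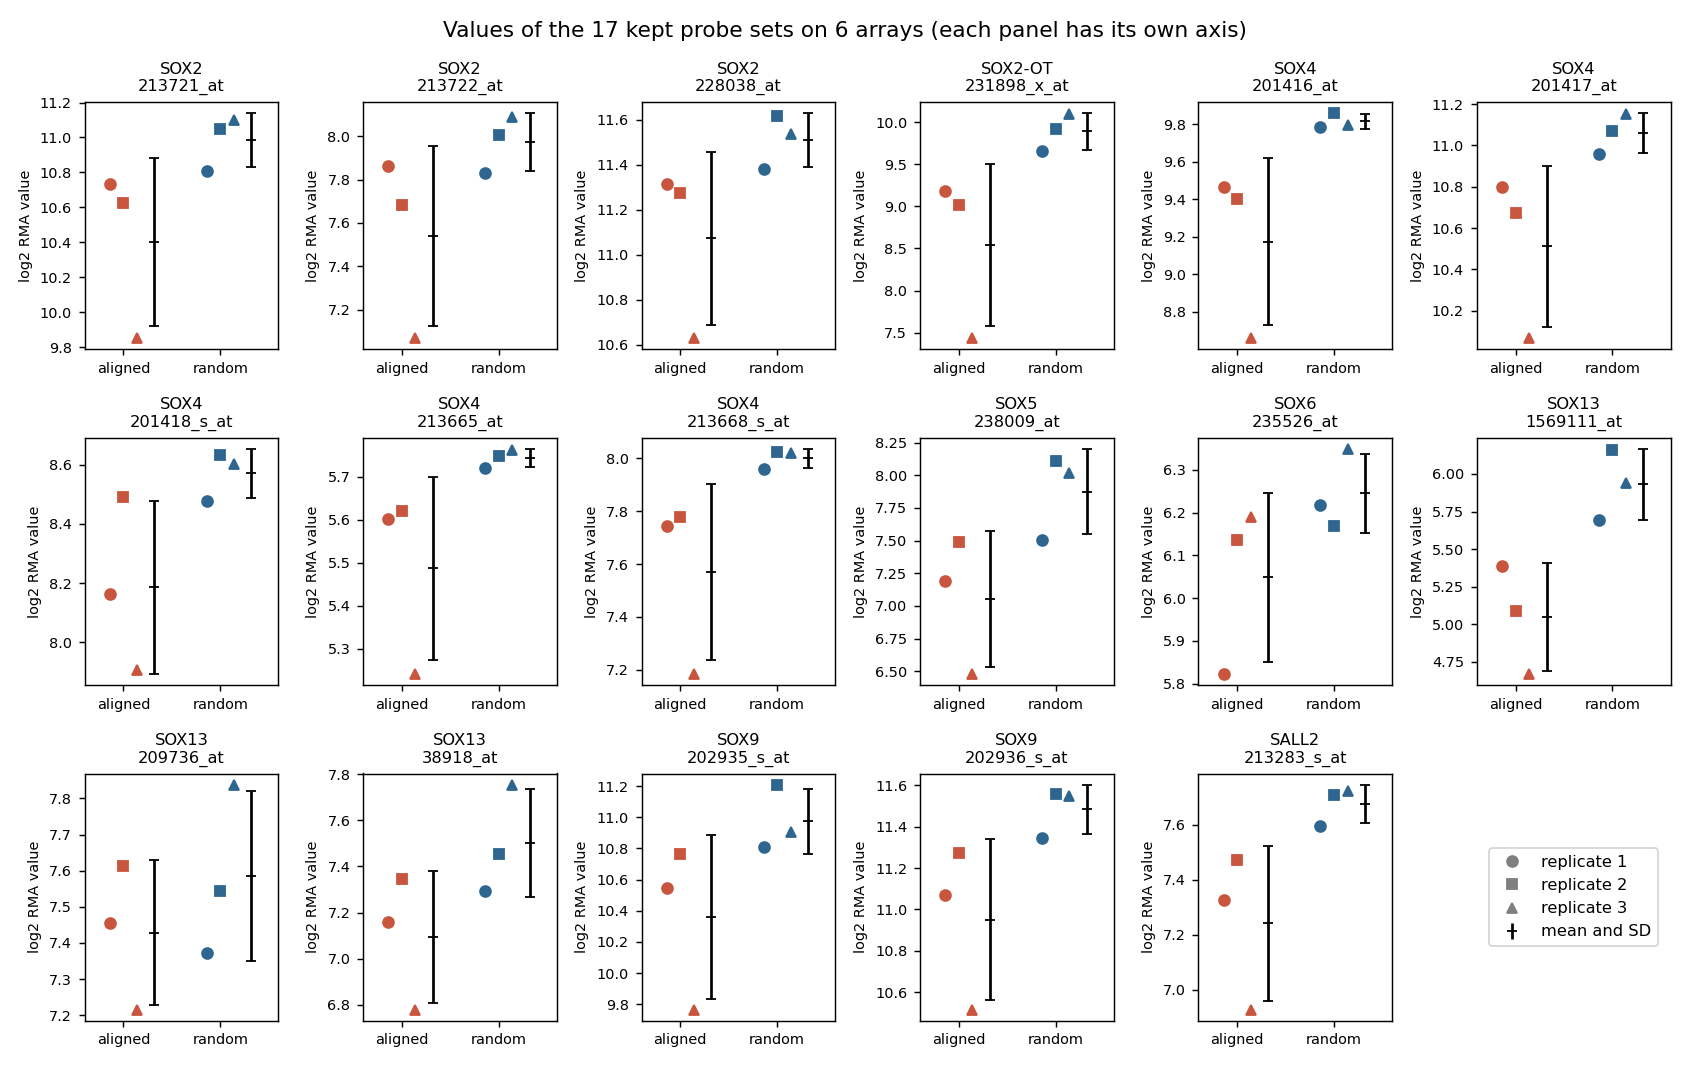
Log2 RMA values (y axis, separate scale in each panel) of the 17 kept probe sets in the 3 aligned cultures (red, left) and the 3 random cultures (blue, right), with marker shapes for replicate numbers and black bars for mean and SD. Aligned 3 (red triangle) is the lowest of the 6 arrays in 16 panels, the exception being SOX6, and the groups do not overlap in 12.

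SOX2, the stem cell factor of group B1, has 4 probe sets, of which 3 were kept. Probe set 228038_at read 11.32, 11.27 and 10.63 in the aligned cultures, against 11.38, 11.61 and 11.54 in the random ones. The highest aligned value lay just under the lowest random value, and aligned 3 was far below both groups' other arrays. The aligned cultures averaged 11.07 ± 0.38 and the random cultures 11.51 ± 0.12 (SD, n = 3 each), a difference of -0.44 ± 0.18 (SE). Probe set 213721_at differed by -0.58 ± 0.22 without overlap. Probe set 213722_at differed by -0.44 ± 0.20, but its groups overlapped, since aligned 1 read 7.86 and random 1 read 7.83. The fourth, 214178_s_at, was dim, with values between 5.22 and 5.57. Without aligned 3, the 3 kept probe sets differed by -0.30 (213721_at), -0.20 (213722_at) and -0.22 (228038_at). SOX2 was thus lowest in aligned 3, and aligned 1 and random 1 were nearly equal. In bulk RNA, fewer cells with a transcript and less of it per cell cannot be told apart.

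SOX2-OT, the noncoding transcript around SOX2, was read by a single probe set, 231898_x_at, whose suffix marks sequence shared with other transcripts, and the part of those transcripts in its values was not tested. It read 9.18, 9.02 and 7.44 on aligned fibers, against 9.66, 9.92 and 10.09 on random fibers. Every aligned culture lay below every random culture, and aligned 3 minus the mean of the other aligned cultures was -1.66. The aligned cultures averaged 8.54 ± 0.96 and the random cultures 9.89 ± 0.22 (SD, n = 3 each). The difference of -1.35 ± 0.42 (SE), or 2.54-fold higher on random fibers, was the most negative of the 17. Without aligned 3 it was -0.79, still more negative than that of each SOX2 probe set. Between arrays of the same number, SOX2-OT differed by -0.48, -0.90 and -2.65 for numbers 1, 2 and 3, while SOX2 228038_at differed by -0.07, -0.34 and -0.91.

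SOX4, a group C factor that TGF-beta induces in glioma-initiating cells, has 6 probe sets, of which 5 were kept. Probe set 201417_at read 10.80, 10.67 and 10.07 on aligned fibers, against 10.96, 11.07 and 11.15 on random fibers. Probe set 201416_at read 9.46, 9.40 and 8.66 on aligned fibers, against 9.79, 9.86 and 9.80 on random fibers. In both, the random arrays lay close together and all aligned arrays lay below them. The differences were -0.55 ± 0.18 (SE) for 201417_at and -0.64 ± 0.20 for 201416_at. Probe set 213668_s_at differed by -0.43 ± 0.16 and 213665_at by -0.26 ± 0.11, both without overlap. Probe set 201418_s_at differed by -0.38 ± 0.15 and overlapped, because aligned 2 at 8.49 lay just above random 1 at 8.48. The 5 kept probe sets of SOX4 thus had the same direction, while the dim 1567906_at, at 4.88 to 5.34, differed by 0.04. Without aligned 3, 201417_at differed by -0.32 and 201416_at by -0.38, while 213668_s_at, 213665_at and 201418_s_at differed by -0.24, -0.13 and -0.24.

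SOX11, the other group C member, was dim in all 3 probe sets, with values between 2.44 and 3.93. Probe set 204914_s_at read 3.75, 3.93 and 3.78 on aligned fibers, against 3.67, 3.55 and 3.66 on random fibers. Its aligned arrays all lay above the random ones, by 0.19 on average, as did 7.95% of the probe sets the filter left out. The other SOX11 probe sets overlapped.

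Within group D, SOX5 had 1 kept probe set of 4. Probe set 238009_at read 7.19, 7.49 and 6.48 on aligned fibers, against 7.50, 8.11 and 8.01 on random fibers. Aligned 2 came close to random 1, and no aligned array exceeded a random one. The aligned cultures averaged 7.05 ± 0.52 and the random cultures 7.87 ± 0.33 (SD, n = 3 each), a difference of -0.82 ± 0.27 (SE), and -0.53 without aligned 3. Of the dim SOX5 probe sets, 207336_at read 5.44, 5.22 and 4.85 on aligned fibers, against 5.50, 5.91 and 5.58 on random fibers. It too did not overlap, as in 4.18% of the probe sets left out in that direction, and the remaining SOX5 probe sets overlapped with differences of -0.21 (1569638_at) and -0.04 (238285_at).

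SOX6, which often acts beside SOX5 in development, had 1 kept probe set of 8. Probe set 235526_at read 5.82, 6.14 and 6.19 on aligned fibers, against 6.22, 6.17 and 6.35 on random fibers. The groups overlapped, and here aligned 1 and not aligned 3 was lowest. The difference was -0.20 ± 0.11 (SE), and it was -0.083 without aligned 1. The other 7 probe sets lay between 2.36 and 5.67, and their differences ran from -0.01 to 0.17.

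The 3 probe sets of SOX13 did not read alike. Probe set 1569111_at read 5.39, 5.09 and 4.67 on aligned fibers, against 5.69, 6.16 and 5.94 on random fibers. The difference of -0.88 ± 0.19 (SE) lay without overlap near the lower bound of the filter. The brighter 209736_at read 7.46, 7.61 and 7.22 on aligned fibers, against 7.37, 7.54 and 7.84 on random fibers. There the groups were mixed, with a difference of -0.16 ± 0.15, which was -0.05 without aligned 3 and -0.03 without random 3. Probe set 38918_at differed by -0.41 ± 0.17, and -0.25 without aligned 3, and overlapped.

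SOX9, the group E factor of glial fate and of cartilage, has a pair of probe sets, both kept. Probe set 202936_s_at read 11.07, 11.27 and 10.52 on aligned fibers, against 11.35, 11.56 and 11.55 on random fibers. Probe set 202935_s_at read 10.54, 10.77 and 9.77 on aligned fibers, against 10.81, 11.21 and 10.90 on random fibers. In both, the aligned arrays lay below the random ones, by a narrow margin between aligned 2 and random 1. The differences were -0.53 ± 0.18 (SE) and -0.62 ± 0.25, and without aligned 3 they were -0.31 and -0.32. SOX8, of the same group, was dim, with values between 3.44 and 3.79 that overlapped, and a difference of 0.04.

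SALL2 was read by 1 probe set, 213283_s_at. It read 7.32, 7.47 and 6.93 on aligned fibers, against 7.60, 7.71 and 7.72 on random fibers. The groups did not overlap, and the random arrays lay within a narrow band. The aligned cultures averaged 7.24 ± 0.28 and the random cultures 7.68 ± 0.07 (SD, n = 3 each), a difference of -0.44 ± 0.14 (SE), and -0.28 without aligned 3.

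**Figure D2:**
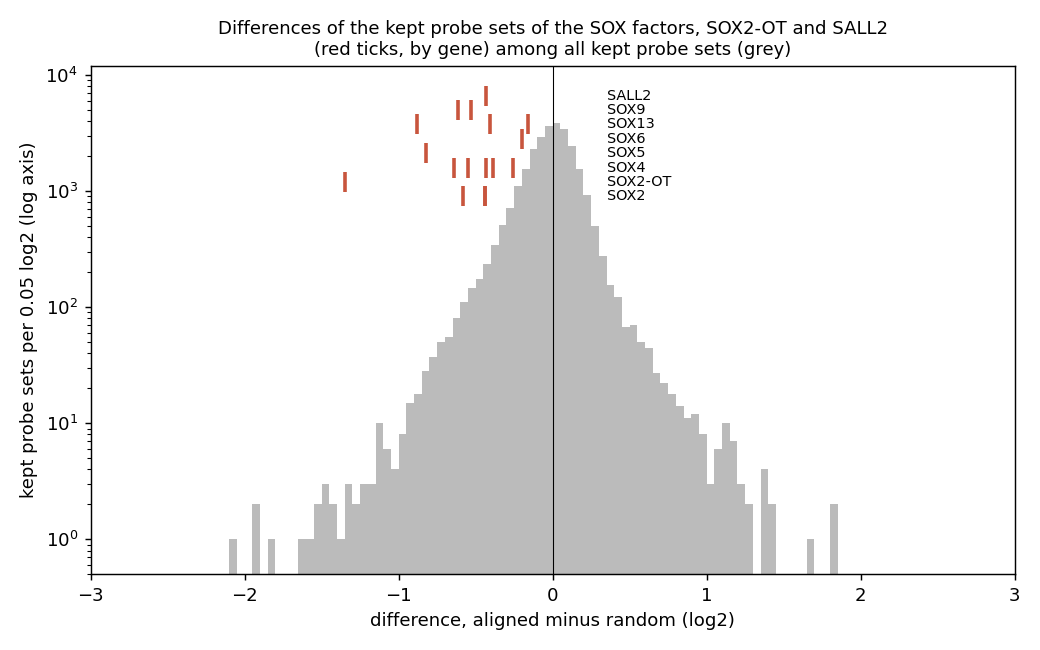
Differences in log2 value, aligned minus random (x axis), of all 27621 kept probe sets as a histogram with a log y axis (grey), and of the 17 kept probe sets of the members as red ticks set at 1 height per gene. All 17 ticks lie left of 0, between -1.35 for SOX2-OT and -0.16 for SOX13, while the median of all kept probe sets is near 0.

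The share that aligned 3 held in these differences was followed across the 17 kept probe sets. Their median difference was -0.44, and -0.28 without aligned 3, while the median over all kept probe sets was near 0 in both cases. Aligned 3 was the lowest of the 6 arrays in 16 of the 17, as it was in 28.6% of all kept probe sets. With aligned 3 left out, all 17 differences stayed negative, and aligned 1 and aligned 2 lay below all random arrays in 13, against 11.4% of all kept probe sets. These counts again rest on the contrast by which the members were named, and on members that passed the filter.

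Replicate numbers occur in both groups. Between arrays numbered 1, 15 of the 17 differences were negative, with a median of -0.27. Between arrays numbered 2, 16 were negative, with a median of -0.32, and between arrays numbered 3 all 17 were negative, with a median of -1.02. Over all kept probe sets the medians lay near 0 for each number, and 52.6%, 47.6% and 52.2% of differences were negative for numbers 1, 2 and 3. The difference between the arrays numbered 3 was the most negative in 16 of the 17, and in 44.4% of all kept probe sets. These counts too come from the contrast by which the members were named.

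**Figure D3:**
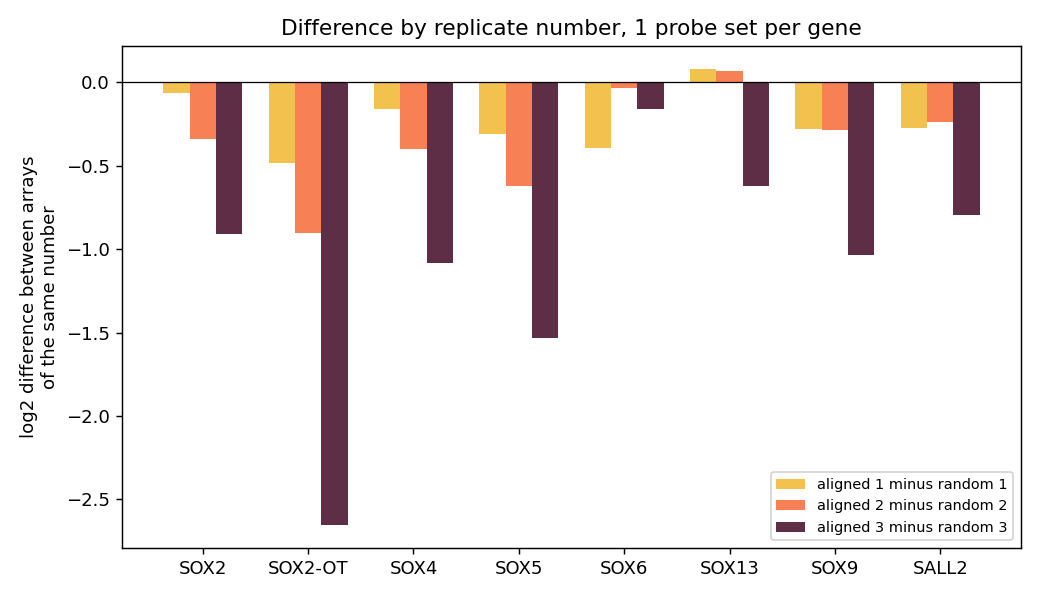
Log2 difference between the aligned and random arrays of the same number (bars for numbers 1, 2 and 3), with 1 probe set for each of the 8 genes with kept values. SOX2-OT has the longest bar, -2.65 for number 3, and SOX13 has bars above 0 for numbers 1 and 2.

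The genes whose values ran most like those of a member were sought by the root mean square distance between values centred on each probe set's own mean, over 6 arrays and 12381 genes. For SOX2-OT the nearest were STON1 (0.09 log2 units), the orphan receptor GPRC5B (0.11) and TMT1A (0.14). STON1 read 7.28, 7.24 and 5.73 on aligned fibers, against 7.95, 7.97 and 8.33 on random fibers, again lowest in aligned 3. For SOX4 they were PFKFB3, a regulator of glycolysis, CHN1 and SNN, each at 0.05. For SOX9 they were ZNF292 (0.04), ADGRV1 (0.07) and MARCKSL1 (0.07), and for SALL2 they were LRIG3, the cadherin FAT4 and PFKFB4 (0.04, 0.04 and 0.05). All 12 of these genes were lowest in aligned 3, and the names are a description of the 6 arrays.

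Genes around the SOX factors were then read from 7 lists of family members, partners, targets and signals, each gene by its kept probe set with the highest mean. None of these genes passed an adjusted p under 0.05 in limma, so the counts are those at an unadjusted p under 0.05. Together with 4 lists of cell type markers, 78 of 122 genes were measured, of which 18 were lower and 3 were higher on aligned fibers at that level. Among all genes 5.48% were lower and 4.31% were higher at that level. The lists were chosen with earlier results of these data known. Nothing is therefore read from the distance between these shares, here or within a single list. The count of 21 was 13 without random 1 and 10 without random 3.

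Of 11 other SOX genes, 5 had a kept probe set, and 1 was lower at the unadjusted level. SOX21, a relative of SOX2 known from chick embryos to promote neuronal differentiation, read 6.12, 5.73 and 5.73 on aligned fibers, against 6.53, 6.27 and 6.83 on random fibers. Its groups did not overlap, as in 9.33% of all genes in that direction, and its difference of -0.68 ± 0.17 (SE) was -0.62 without aligned 3, so aligned 3 did not set it apart. SOX3, a close relative of SOX2 of group B1, differed by -0.34 ± 0.19 with overlap, by -0.10 without aligned 3 and by -0.02 in its other kept probe set. SOX12 of group C differed by -0.18 ± 0.12. SOX10 of group E differed by 0.08 ± 0.09. SOX1, SOX7, SOX14, SOX17, SOX18 and SOX30 were dim in every probe set.

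Among the SALL paralogs and partner factors, 8 of 16 genes were measured, with 4 lower and 1 higher at the unadjusted level. SALL1, a paralog of SALL2, read 8.40, 8.43 and 7.87 on aligned fibers, against 8.70, 8.83 and 8.76 on random fibers, a difference of -0.53 ± 0.15 (SE), and -0.35 without aligned 3. SALL3 differed by -0.50 ± 0.17, and its 4 kept probe sets ran from -0.67 to -0.48. All aligned arrays lay below all random arrays for SALL1 and SALL3. The paralog SALL4 ran the other way, at 0.27 ± 0.18 with overlap. POU3F2, the POU domain partner of SOX2 in neural cells, read 10.73, 10.67 and 9.58 on aligned fibers, against 10.93, 11.19 and 11.26 on random fibers. The difference was -0.80 ± 0.29, and -0.43 without aligned 3. Its paralog POU3F3 differed by -0.56 ± 0.20, also without overlap, and by -0.34 without aligned 3. The other kept probe set of POU3F3 differed by -0.28 ± 0.14 with overlap. The gene that was higher, named after its values were seen, was MYC, which read 8.60, 8.92 and 10.02 on aligned fibers, against 8.51, 8.58 and 7.77 on random fibers. Its difference of 0.89 ± 0.37 was 0.47 without aligned 3. OLIG1 and OLIG2 were dim.

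Of 18 neural stem genes 12 were measured, and 3 were lower and 0 were higher at the unadjusted level. MSI2, an RNA-binding protein of stem cells, differed by -0.58 ± 0.20 (SE), and by -0.32 without aligned 3. All 9 of its kept probe sets differed in that direction, from -0.60 to -0.33. LHX2, a homeobox factor of the developing forebrain, differed by -0.33 ± 0.11 without overlap, and by -0.17 ± 0.09 with overlap in its other kept probe set. The nuclear receptor NR2E1 differed by -0.35 ± 0.14 with overlap, and by -0.22 without aligned 3. GLI3, an effector of hedgehog signalling, did not overlap at -0.29 ± 0.14, and differed by -0.14 without aligned 3. The median of the 12 was -0.22, and -0.12 without aligned 3, beside 0.0096 for all genes.

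Targets of SOX9 did not share a direction. Of 17 genes 12 were measured, 6 of them with negative differences, with 2 lower and 1 higher at the unadjusted level and a median of -0.0028. Several were dim: COL9A2, ACAN, MATN1, MATN4 and HAPLN1 read only 5.56 to 6.42, not far from the array medians. Among brighter targets NFIA, NFIB and SLC1A3 differed by -0.07, -0.13 and -0.16 and COL27A1 by 0.13, all with overlap. The collagen gene COL9A3 read 5.71, 6.15 and 4.81 on aligned fibers, against 6.26, 6.99 and 7.02 on random fibers, a difference of -1.20 ± 0.34 (SE). COL11A1 differed by -0.80 ± 0.32 and also did not overlap, and without aligned 3 it differed by -0.42. In the other direction COL11A2 differed by 0.25 ± 0.10, with all aligned arrays above all random ones, as in 8.71% of all genes, and MATN1 by 0.21 ± 0.10 with overlap. Of the genes known to follow SOX4 and SOX11, 7 of 10 were measured and 1 was lower at the unadjusted level. All 7 differences were negative, as were 47.5% of those of all genes, but most were small, with a median of -0.12 and EZH2 at -0.02 ± 0.13 and GAP43 at -0.12 ± 0.22. TEAD2, a partner of YAP that SOX4 and SOX11 drive in mouse, differed by -0.30 ± 0.10 without overlap in its brightest probe set, but its 4 kept probe sets ran from -0.30 to 0.04, and in the last of these all aligned arrays lay above all random ones. SEMA3C, a secreted semaphorin, differed by -0.64 ± 0.29 without overlap, and by -0.27 without aligned 3. Its other kept probe set differed by -0.64 ± 0.30 with overlap. TUBB3, the neuronal beta-tubulin, differed by -0.12 ± 0.09 and PROX1 by -0.085 ± 0.077.

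Of 10 genes of the oligodendrocyte lineage, 4 were measured and 2 were lower at the unadjusted level. PDGFRA, the growth factor receptor of oligodendrocyte progenitors, read 9.43, 8.77 and 5.95 on aligned fibers, against 9.87, 10.13 and 10.00 on random fibers. All aligned arrays were lower and aligned 3 was lowest by a wide margin, with a difference of -1.94 ± 0.78 (SE), and -0.90 without aligned 3. The other kept probe set of PDGFRA differed less, by -0.73 ± 0.20 without overlap, and by -0.49 without aligned 3. CNP, a myelin enzyme, differed by -0.50 ± 0.13 without overlap, and by -0.04 in its other kept probe set. The myelin gene MBP and the factor MYRF, at 0.08 ± 0.08 and 0.03 ± 0.13, overlapped.

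All 17 genes of the upstream signals were measured, with 4 lower and 0 higher at the unadjusted level. TGFB1 read 10.29, 10.16 and 9.83 on aligned fibers, against 10.44, 10.43 and 10.55 on random fibers. The groups of this TGF-beta ligand did not overlap, and its difference of -0.38 ± 0.12 (SE) was -0.25 without aligned 3 and -0.14 in its other kept probe set. TGFB2, a second ligand, differed by -0.30 ± 0.09, also without overlap, and by -0.29 without aligned 3. The other kept probe set of TGFB2 differed by -0.17 ± 0.13 with overlap, and by -0.07 without aligned 3. ID3, a target of bone morphogenetic proteins, differed by -0.67 ± 0.12, and PTCH1, the hedgehog receptor, by -0.26 ± 0.11 with overlap, while the other kept probe set of PTCH1 differed by 0.07. The median of the 17 was -0.098.

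**Figure D4:**
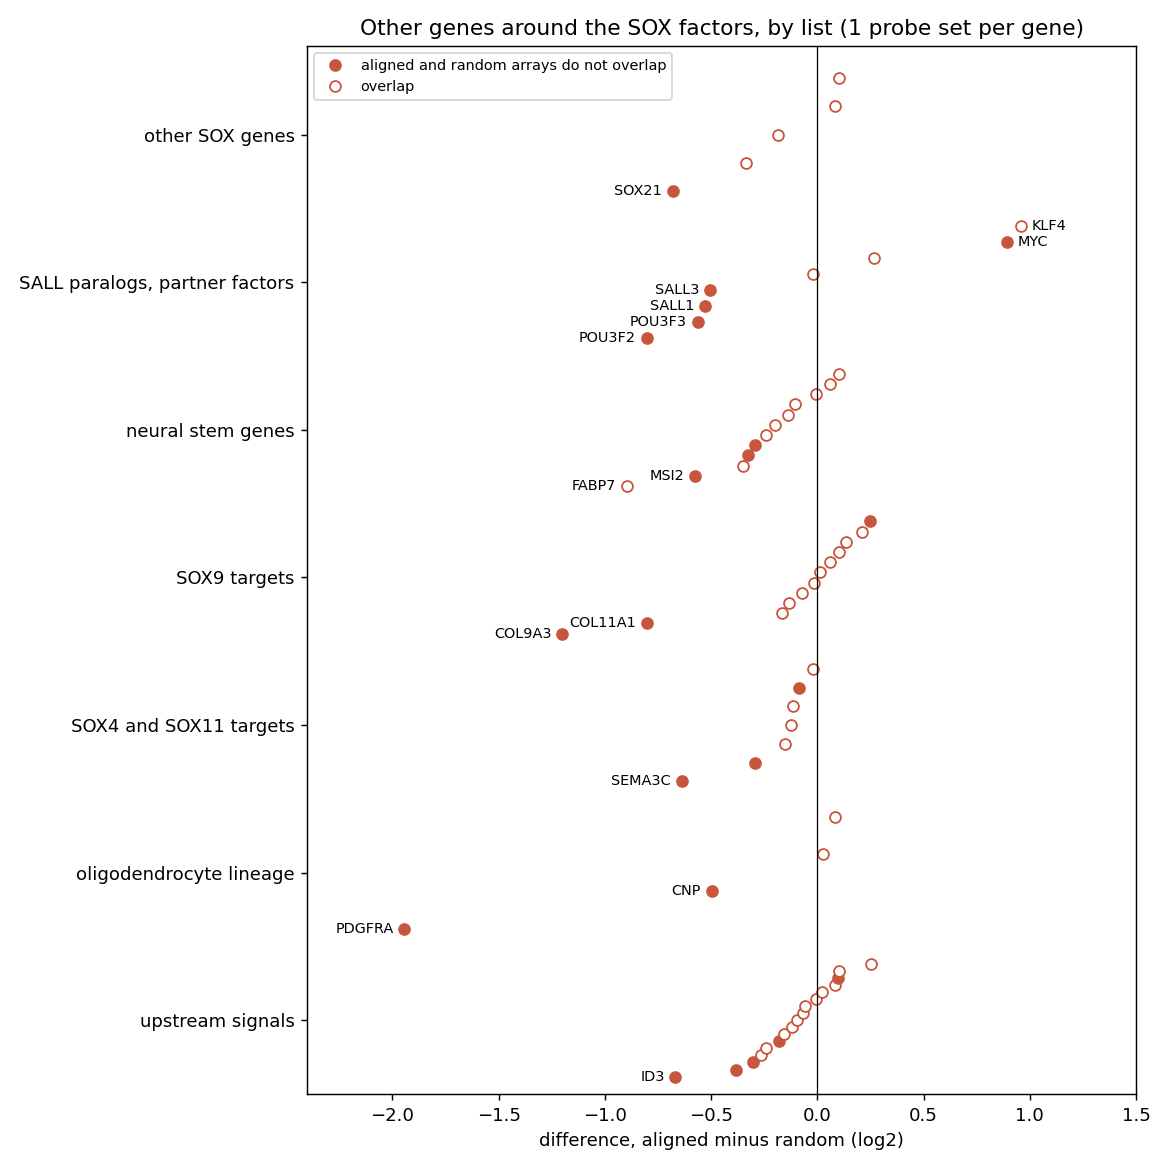
Log2 differences, aligned minus random (x axis), of the measured genes in 7 lists (rows), with 1 probe set per gene. Filled circles are genes whose aligned and random arrays do not overlap, and genes beyond 0.45 in either direction are named, with PDGFRA at -1.94 and MYC at 0.89.

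Markers of other cell types the cultures could hold were read as well, and 0 of them passed the adjusted threshold in limma. All 6 neuronal markers had a kept probe set, and they did not share a direction. Of these, 3 were negative, the median was 0.04, the groups of 4 overlapped, and 1 was lower and 1 higher at the unadjusted level. A kept probe set can still be dim, as RBFOX3 read 5.48 to 5.75, around the array medians of 5.63 to 5.66. NEFL, a neurofilament, differed by -1.38 ± 0.46 (SE), and by -0.79 without aligned 3, and SYT1, a synaptic vesicle protein, by 0.56 ± 0.14. The summed level of the 6, as 2 raised to the log2 value, was 667 to 837 on aligned and 862 to 934 on random fibers. Without NEFL, left out after its values were seen, the direction turned, with sums of 537 to 597 on aligned and 458 to 523 on random fibers. For 7 oligodendrocyte lineage markers, 6 of which had a probe set and 3 a kept one, the sums were 809 to 1690 on aligned and 2077 to 2289 on random fibers. Without PDGFRA, left out after its values were seen, they were 747 to 1001 on aligned and 1143 to 1190 on random fibers. Most of this remaining sum was CNP, whose brightest probe set read 9.20 to 10.02, while MBP read 6.14 to 6.40. MBP differed by 0.08 and the other kept probe set of CNP by -0.04, so the sum does not describe the list as a whole. CSPG4, MAG and MOG were dim. For microglia, 1 of 6 markers was kept, AIF1 at 0.17 ± 0.10. For endothelium 3 of 5 were kept, with PECAM1 at 0.15 ± 0.10 and VWF at 0.06 ± 0.08. KDR ran the other way at -0.13 ± 0.19 with overlap, and differed by 0.07 without aligned 3. AIF1, VWF and KDR, at 5.63 to 6.01, 5.52 to 5.74 and 5.15 to 5.94, also read near the array medians. Of these microglia and endothelium markers, 0 passed an unadjusted p under 0.05 in limma. The part of these markers in the differences of the SOX factors was not tested.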

How the data were processed

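RNA of 6 cultures was hybridised to 6 arrays, and groups and replicate numbers came from the sample titles. The authors deposited log2 values, 1 per probe set and array, for which the submitters' processing notes name RMA, a method of background correction, normalization and probe summary. Its version is not given in the sources used here. The number of arrays limits the precision (median SE of a log2 difference 0.10).

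The 62 control probe sets were left out, and 41091 others had 1 gene symbol, 1801 several and 11721 none. All 10 members matched RefSeq by gene identifier. The difference, aligned minus random, was fitted over the kept probe sets with lmFit and eBayes of limma 3.58.1 (R 4.3.3), without covariates, with Benjamini-Hochberg adjustment, after tests on simulated data. Figures were drawn with matplotlib 3.10.9, and the permutation test used scipy 1.17.1.

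Members, lists and tests were chosen with earlier results of these data known. Named beside the members were up to 4 genes per list with the smallest unadjusted p (2 for neurons, microglia and endothelium). KDR was added to those of endothelium for its opposite direction. Also named were the 3 most alike genes for each of SOX2-OT, SOX4, SOX9 and SALL2. Replicate numbers were taken as pairs by a limit of 0.1, from the values and not from a label. Deviations from group means correlated across probe sets by 0.408, 0.353 and 0.123 for numbers 1, 2 and 3. Aligned 2 and random 3, of unlike numbers, also passed the limit at 0.111, so it does not single out the pair of number 3. The labels do not say what a number shares. The alternatives were other filters, normalizations, priors, weights, a block and omitted arrays.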

Additional observations from a re-analysis of the deposited data

How the results depend on the processing

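With the replicate number as a block, 0 probe sets passed the adjusted threshold, 3710 had an unadjusted p under 0.05 and 25 list genes did so, counts within 1.5 times of those without the block. In limma 0 probe sets passed the adjusted threshold, against 291 with array weights and 0 to 1 with an array left out. The 2676 probe sets at an unadjusted p under 0.05 became 4698 with no filter, 1380 with a filter at the 75th percentile, 6789 with array weights, 1303 at gene level, 1707 without probe sets of shared sequence and 1262 to 4812 with an array left out. The 4548 probe sets without overlap became 7821 with no filter, 2461 at the 75th percentile, 2233 at gene level, 2888 without shared sequence and 5858 to 10128 with an array left out. The 21 list genes became 11 at the 75th percentile, 35 with array weights and 10 to 30 with an array left out. The 12 member probe sets below all random arrays became 6 at gene level, 7 without shared sequence and 12 to 15 with an array left out. SOX2-OT, SOX9 and SALL2 have only kept probe sets with the suffix _s_at or _x_at, so they have no value without shared sequence. With another filter, level or suffix the number and the kind of probe sets tested differed too, and their part in these shifts was not tested. A probe set without overlap stays so when an array is left out. Over the same probe sets, counts without overlap can therefore only hold or rise with fewer arrays. The cause of the other shifts was not tested. Of 121 recomputed differences of member genes 119 kept their sign and moved by less than the spread within groups (pooled SD). The exceptions were SOX13, at 0.035 with array weights in place of -0.16, and at -0.48 as the mean of its kept probe sets. This limit is wide, since leaving out 1 of 3 arrays cannot move a difference by more than that spread. Other filters, priors or a block leave the difference of a probe set as it is. Without aligned 3, SOX2 went from -0.44 to -0.22 and SOX2-OT from -1.35 to -0.79.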

Other observations

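Some genes around the SOX factors stood out by their values alone and were picked after these were seen. FABP7, the fatty acid binding protein of radial glia, read 12.36, 11.86 and 10.39 on aligned fibers, against 12.50, 12.45 and 12.35 on random fibers, so its groups overlapped and aligned 3 was far the lowest. KLF4, a reprogramming factor, ran the other way with 6.67, 7.67 and 8.90 on aligned fibers, against 6.76, 6.72 and 6.88 on random fibers. Its aligned 1 lay below all random arrays while aligned 3 lay well above them. PAX6, a factor of neural progenitors, differed by -0.02 ± 0.09 (SE).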
